A study of Mus musculus with 2 samples.

Results

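The enzymes that activate, import and oxidise fatty acids were examined in AML12 cells, a nontumorigenic mouse hepatocyte line, with and without added H19, a long noncoding RNA. The set was chosen by gene name and holds 38 genes, of which 36 had a row among the 21145 genes of the deposited expression table. Cpt1c and Acot4 had none, so their expression was not analysed here, and they enter only the promoter search. The control group was an AML12 line stably carrying the control lentivirus, and the H19 group an AML12 line stably carrying a lentivirus that expresses H19. Both lines come from the strain CD1/MT42, were at passages 14 to 16 and were selected and kept in puromycin. Parent cells grew with serum, dexamethasone and an insulin, transferrin and selenite supplement. The labels do not say whether a line is a clone or a pool. There was 1 library per group, so values carry no replicate error. The differences below were not tested and describe 2 libraries.

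Long-chain fatty acids are first joined to coenzyme A by acyl-CoA synthetases. A carnitine shuttle carries the acyl group into mitochondria, where a repeating spiral of dehydrogenation, hydration, dehydrogenation and thiolysis shortens it and passes electrons to the respiratory chain through the electron transfer flavoprotein. Peroxisomes begin the shortening of very long and branched chains, and thioesterases release the free acid from coenzyme A again. Many of these genes are targets of the nuclear receptor PPAR-alpha in liver.

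Levels are FPKM, which scale fragments to transcript length and to mapped fragments, with the control library first, and differences as log2(FPKM + 1) in the H19 library minus the control. A gene counted as measured when its mean over both libraries was at least 1 FPKM, and as called when this difference was at least 2-fold (1 on the log2 scale) or, by a second rule, 1.5-fold (0.585). The added gene, H19, was at 4.72 FPKM in the H19 library and listed at 0 in the control. The total of fragments per library is not given in the sources used here. Of 12 hepatocyte markers 5 were measured, among them Hnf4a at 74.4 and 44.4 FPKM, whereas albumin (Alb, 0.990 and 0.178 FPKM), transthyretin (Ttr) and Cps1 were under 1 FPKM in both libraries. The 11 hepatocyte markers with a row summed to 399 and 449.5 FPKM. The 5 bile duct markers summed to 818 and 463 FPKM, the 6 fibroblast and stellate markers with a row to 3.86 and 1.26 FPKM, the 3 leukocyte markers with a row to 4.67 and 1.72 FPKM and the 3 endothelial markers with a row to 0.469 and 0.314 FPKM. The part of any of these in the differences below was not tested, and in bulk RNA fewer cells of a type cannot be told apart from less RNA per cell. The pseudocount makes differences of genes near 1 FPKM smaller than their FPKM ratios.

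Most of the pathway was expressed at similar levels in both libraries, with a few genes lower in the H19 library. At its entry Acsl3, Acsl4 and Cpt1a were lower, while Acsl1 and Acsl5 were close to even. Of the 34 measured members, 21 were lower and 13 higher in the H19 library, against 41.1% of all 11674 measured genes that were lower and 58.9% that were higher. With the upper quartiles of the libraries made equal, which moved the median of all genes by -0.10, 26 members were lower and 8 higher. Under that scaling 6140 of all 11623 measured genes were lower and 5483 higher, so the background for every count with equal upper quartiles differs too. The median difference of the members was -0.10, with a range from -1.09 to 0.79, and that of all measured genes was 0.08. By the 2-fold rule 2 members, Acot1 and Acsl3, were lower, against 1.57% of all genes, and none was higher, against 1.14% (2.71% in either direction). By the 1.5-fold rule 5 were lower, with Cpt1a, Acsl4 and Acads added, against 6.21% of all genes, and only Acot8 was higher, against 8.99%. The remaining 28 measured members lay within 1.5-fold.

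**Figure D1:**
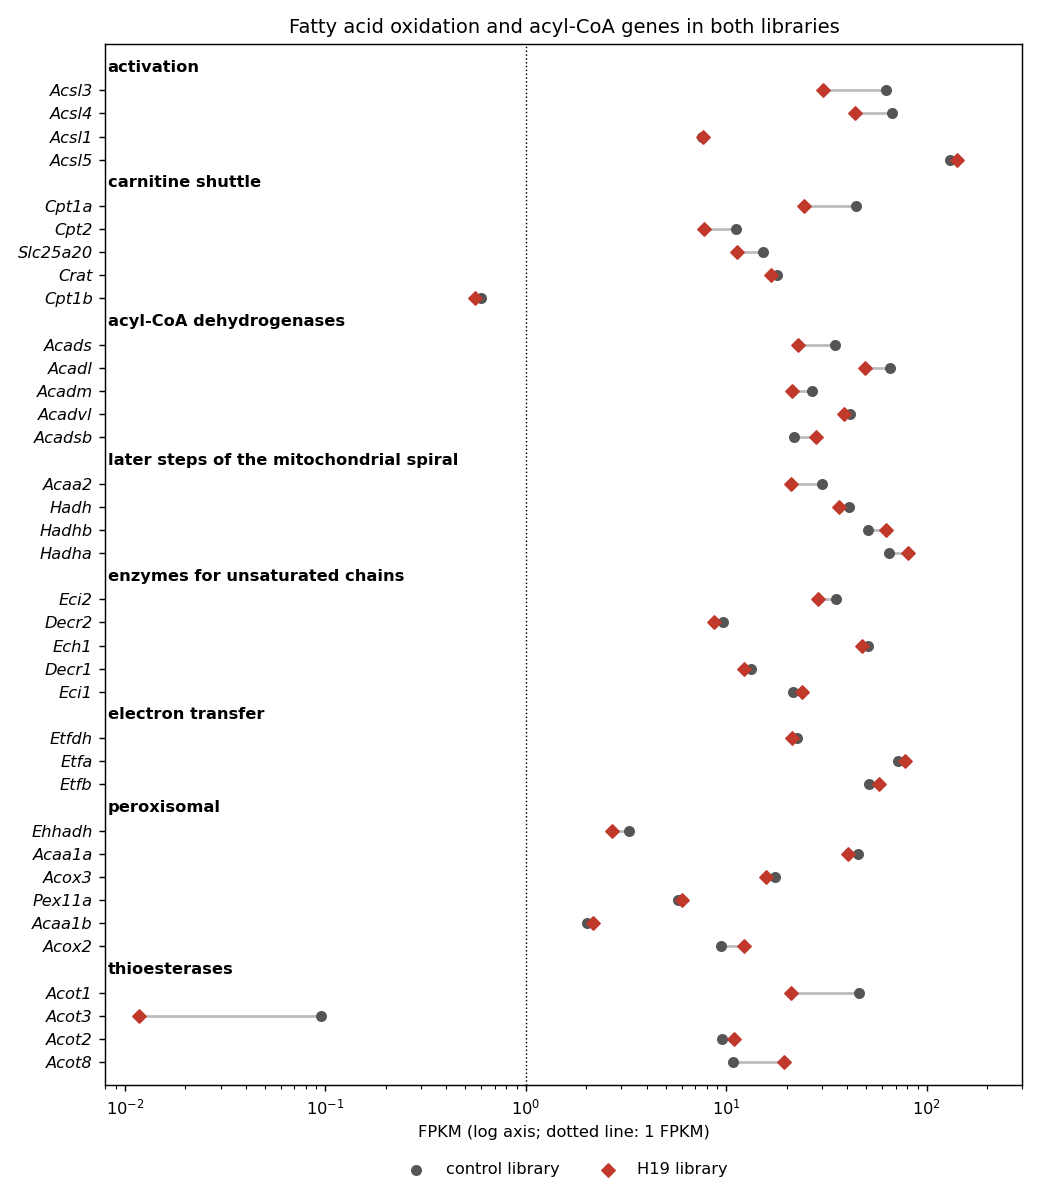
Level of each of the 36 members with a row, in FPKM on a log axis, in the control library (circles) and the H19 library (diamonds), grouped by role. The longest gaps above 1 FPKM are those of Acot1, Acsl3 and Cpt1a, with the H19 library lower, and Acot8, with the H19 library higher.

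Activation by acyl-CoA synthetases was the step with the highest single level and an uneven difference. Acsl5, an isoform of liver and intestine found at the endoplasmic reticulum and mitochondria, had the highest FPKM of all members, at 131 and 141 (0.11, or -0.0087 with equal upper quartiles). Acsl3, an isoform of the endoplasmic reticulum and of growing lipid droplets, was at 62.7 and 30.3 FPKM, a difference of -1.03, and 1.44% of measured genes had a lower one. Acsl4, which prefers arachidonic acid, was at 67.1 and 43.9 FPKM (-0.60). Acsl1, the main isoform of whole liver, was low in both libraries at 7.52 and 7.67 FPKM (0.03, or -0.08 with equal upper quartiles). As a share of the summed FPKM of these 4 genes, a measure that no scaling of a library can move, Acsl5 made up 48.8% in the control against 63.3% in the H19 library. The share of Acsl3 was 23.4% and 13.6%, and that of Acsl4 24.995% and 19.7%. In the authors' deposited table of differences Acsl3 has a log2 ratio of -1.05 and a q-value of 1.57e-05, from a comparison of the same pair of libraries that carries no replicate error. Acsl3 (chromosome 1, 78657825 to 78707743, plus strand, GRCm38) shares exonic sequence with Utp14b, a gene in its span, which was at 2.07 FPKM in both libraries.

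The carnitine shuttle was lower in the H19 library at each of its 4 measured members under every scaling tried. Cpt1a, the liver form of carnitine palmitoyltransferase 1 and the controlled entry to mitochondrial oxidation, was at 44.3 and 24.4 FPKM (-0.83), and 2.76% of measured genes had a lower difference. Cpt2, which reforms the acyl-CoA on the inner side, was at 11.1 and 7.76 FPKM (-0.47). Slc25a20, the carrier that exchanges acylcarnitine for carnitine across the inner membrane, was at 15.3 and 11.3 FPKM (-0.40). Crat, which moves short acyl groups onto carnitine, was close to even at 17.8 and 16.8 FPKM (-0.08). The difference was thus unequal along the shuttle: Cpt1a stood at 3.98 times the FPKM of Cpt2 in the control and at 3.14 times in the H19 library. Cpt1b, the muscle form, was at 0.597 and 0.558 FPKM and under the limit for a measured gene. Of its 50-base stretches 78.6% also occur in Gm44502, an annotated gene that overlaps it, so its value is uncertain.

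The first dehydrogenation of the spiral is made by acyl-CoA dehydrogenases that differ in the chain length they accept. The 4 straight-chain enzymes were lower in the H19 library under every scaling, and the branched-chain one was higher. Acadvl, for very long chains, was at 41.3 and 38.6 FPKM (-0.10). Acadl, for long chains, was at 65.3 and 49.2 FPKM (-0.40), and Acadm, for medium chains, at 26.8 and 21.3 FPKM (-0.32). Acads, for short chains, had the greatest distance of the family at 34.8 and 22.7 FPKM (-0.60), and 5.98% of measured genes had a lower difference. Acadsb, which also serves isoleucine breakdown, was at 21.6 and 28.0 FPKM (0.36). Acads thus stood at 1.61 times the FPKM of Acadsb in the control and at 0.809 times in the H19 library, so the order of the pair turned. The deposited locus of Acadsb spans 2961904 bases, against 38344 for the annotated gene, and holds 30 other whole coding genes. Whether fragments of these were counted with it was not tested. For Acadvl, 26.9% of its 50-base stretches occur in the opposite gene Dvl2, which was even at 11.1 FPKM in both libraries.

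The later steps of the mitochondrial spiral did not share a direction, and their median (0.07) and mean (-0.01) differed in sign. Hadha and Hadhb encode the alpha and beta subunits of the mitochondrial trifunctional protein, which carries out these steps on long chains. They were both higher in the H19 library, Hadha at 65.003 and 80.4 FPKM (0.30) and Hadhb at 51.2 and 62.7 FPKM (0.29), and stayed above 0 under each scaling. The ratio of Hadha to Hadhb in FPKM was 1.27 in the control against 1.28 in the H19 library, so the 2 transcript levels kept their proportion. Protein was not measured. Of the 50-base stretches of Hadhb 19.7% also occur in other annotated genes, mainly Gm13910. The deposited locus of Hadha holds 2 other whole coding genes, and whether their fragments were counted with it was not tested. Hadh, the hydroxyacyl-CoA dehydrogenase for medium and short chains, was at 40.7 and 36.6 FPKM (-0.15). Acaa2, the mitochondrial thiolase, was at 30.1 and 21.04 FPKM (-0.50). Hadha stood at 2.16 times the FPKM of Acaa2 in the control and at 3.82 times in the H19 library.

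The genes for the subunits of the trifunctional protein lie head to head on chromosome 5, Hadha on the minus strand (30118304 to 30155162) and Hadhb on the plus strand (30155248 to 30184593). The 85 bases between them are shown because they are upstream of both genes. They are given on the plus strand as chr5:30155163-30155247 (GRCm38.p6, sequence from RefSeq), with the GC box GGGCGG in capitals.
Hadha-Hadhb interval: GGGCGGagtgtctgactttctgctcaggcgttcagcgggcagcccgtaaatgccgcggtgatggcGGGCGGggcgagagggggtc
The interval is 69.4% G and C and holds 9 CpG dinucleotides and 2 GC boxes. A GC box on either strand occurs in 35.7% of all 32851 RefSeq promoter windows of 300 bases, which are longer than this interval.

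Electron transfer genes were nearly even. Etfa and Etfb, the subunits of the electron transfer flavoprotein that collects electrons from the acyl-CoA dehydrogenases, were at 72.1 and 77.7 FPKM (0.11) and at 51.5 and 57.7 FPKM (0.16). Etfdh, which hands these electrons to ubiquinone, was at 22.6 and 21.3 FPKM (-0.08). The ratio of Etfa to Etfb was 1.399 and 1.347. With equal upper quartiles Etfa was at -0.0061, so its direction depends on the scaling. Of the 50-base stretches of Etfb 44.8% also occur in other annotated genes, mainly Gm45233, which overlaps it.

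Enzymes that let unsaturated chains enter the spiral were slightly lower in 4 of 5 cases, none by 1.5-fold. Eci2, an enoyl-CoA isomerase of peroxisomes and mitochondria, was at 35.3 and 28.7 FPKM (-0.29), while Eci1, the mitochondrial isomerase, was at 21.6 and 23.7 FPKM (0.13). The dienoyl-CoA reductases Decr1 of mitochondria (13.3 and 12.3 FPKM) and Decr2 of peroxisomes (9.61 and 8.71 FPKM) had differences of -0.10 and -0.13. Ech1, a dienoyl-CoA isomerase, was at 50.8 and 47.3 FPKM (-0.10).

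**Figure D2:**
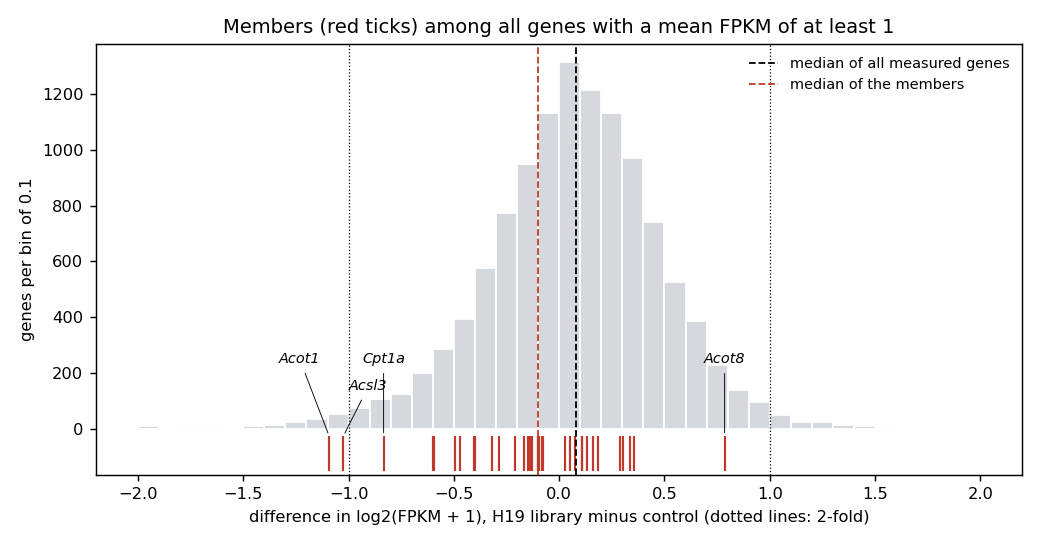
Histogram of the difference in log2(FPKM + 1), H19 library minus control, for measured genes within 2 on either side, in bins of 0.1 (22 genes lie outside), with each measured member as a red tick. Dashed lines mark the medians, 0.08 for all genes and -0.10 for the members, and the named ticks are Acot1, Acsl3, Cpt1a and Acot8.

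The peroxisomal members were even as a group, 3 lower and 3 higher, although with equal upper quartiles 5 were lower. Acaa1a, the main peroxisomal thiolase gene, was at 45.3 and 40.3 FPKM (-0.17), and its near copy Acaa1b at 2.01 and 2.18 FPKM (0.08, or below 0 with equal upper quartiles). Acox3, an oxidase of branched chains, was at 17.4 and 15.7 FPKM (-0.14), and Acox2, which also acts on bile acid precursors, at 9.44 and 12.2 FPKM (0.34). Ehhadh, the bifunctional enzyme and a known PPAR-alpha target, was at 3.29 and 2.70 FPKM (-0.21). Pex11a, which takes part in peroxisome division, was at 5.75 and 5.997 FPKM (0.05, or -0.05 with equal upper quartiles). The coding sequences of Acaa1a and Acaa1b are identical at 96.5% of 1272 bases, and 39.6% of the 50-base stretches of Acaa1b occur in other genes, so how their fragments were divided is uncertain.

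The thioesterases held the lowest and the highest difference of all members, and their median (0.19) and mean (-0.04) differed in sign. Acot1, a cytosolic enzyme, was at 46.1 and 21.1 FPKM (-1.09), and 1.13% of measured genes had a lower difference. In the authors' deposited table Acot1 has a log2 ratio of -1.13 and a q-value of 0.00477. Acot8, a peroxisomal enzyme of broad chain range, was at 10.8 and 19.3 FPKM (0.79), and 3.37% of measured genes had a higher difference. Acot2, the mitochondrial enzyme, was at 9.49 and 10.9 FPKM (0.19), and Acot3, a peroxisomal one, was not measured at 0.0948 and 0.0118 FPKM. Of the summed FPKM of these 4 genes, Acot1 made up 69.3% in the control against 41.1% in the H19 library, and Acot8 16.2% and 37.6%. Acot8 (chromosome 2, 164792765 to 164804882, minus strand, GRCm38) overlaps Snx21 on the other strand, with 9.77% of its 50-base stretches in common. The deposited locus of Acot8 spans 19060 bases, against 12118 for the annotated gene, and holds the whole of Snx21. Whether fragments of Snx21 were counted with Acot8 was not tested. Snx21 was at 3.21 and 2.40 FPKM and so lay on the other side of 0.

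Acot1 and Acot2 are neighbours on chromosome 12, 15616 bases apart, with Acot3 further along. Their coding sequences are identical at 95.6% of 1236 aligned bases for Acot1 and Acot2 and at 84.0% of 1257 for Acot1 and Acot3. A stretch of 60 coding bases, from base 301 of the Acot1 coding sequence, is shown to set the copies side by side. It is more alike between Acot1 and Acot3 than their coding sequences are as a whole. Capitals mark bases that differ from Acot1, 3 in Acot2 and 2 in Acot3, with the sequences taken from GENCODE release M21 on GRCm38.
Acot1: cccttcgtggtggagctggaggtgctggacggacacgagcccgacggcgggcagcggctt
Acot2: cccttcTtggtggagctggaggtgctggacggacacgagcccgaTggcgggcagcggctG
Acot3: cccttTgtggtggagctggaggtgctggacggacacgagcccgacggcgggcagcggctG
Of the 50-base stretches in annotated transcripts of Acot1, 19.2% occur in other genes, and of those of Acot2 27.7%. The FPKM ratio of Acot1 to Acot2 was 4.86 in the control against 1.93 in the H19 library. The deposited locus of Acot3 starts at the start of Acot4 and takes in the whole of it, and whether fragments of Acot4 were counted with Acot3 was not tested.

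**Figure D3:**
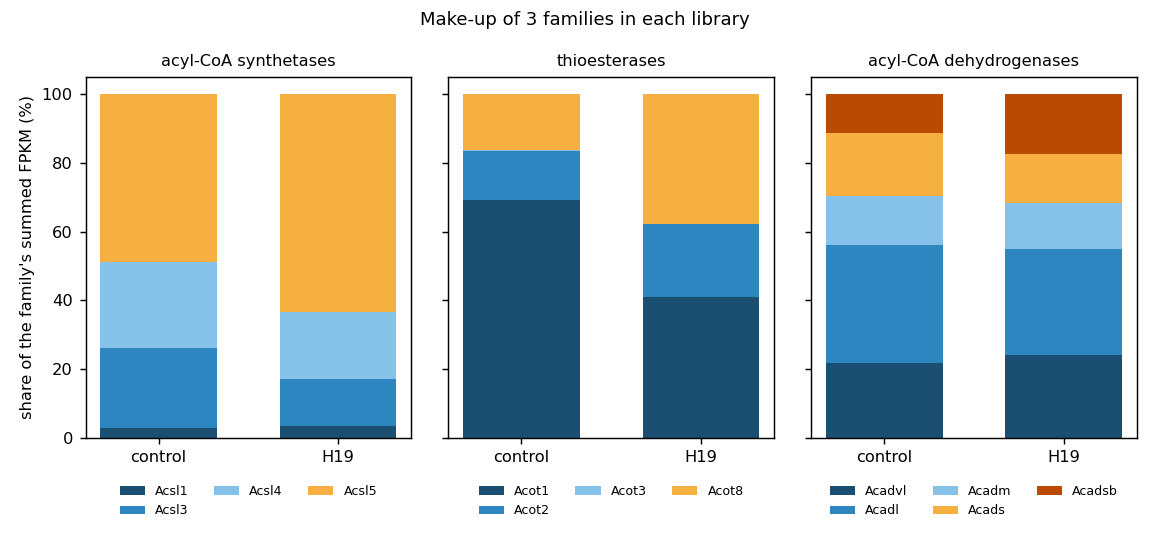
Share of each member in the summed FPKM of the members of its family, in percent, in the control and H19 libraries (1 library a bar). The families are the acyl-CoA synthetases, the thioesterases and the acyl-CoA dehydrogenases. Genes of these families that are not members, such as Acot7 at 61.4 and 52.6 FPKM, are not in the sums. The shares of Acsl5, Acot8 and Acadsb are larger in the H19 library, at 63.3%, 37.6% and 17.5%, and those of Acsl3, Acot1 and Acads smaller.

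PPAR-alpha binds direct repeats of the motif AGGTCA with 1 base between the copies, so RefSeq promoter windows (250 bases before to 50 after the start, GRCm38.p6) were searched on both strands. Of the 38 named members 34 had a window. The full repeat, and a looser one with any base at the fourth position of each copy, were in none of these windows, and in 0.0396% and 0.381% of all 32851 windows. The single motif AGGTCA, which is part of the full repeat, was found in 6 of the 34 members with a window, and in 18.1% of the 27025 genes with a window. Of these 6, Acot3, Acot4 and Cpt1c were not measured or had no row. The 3 measured members were Cpt1a, Acadm and Acadvl, whose differences were -0.83, -0.32 and -0.10. They are 9.68% of the 31 measured members with a window. The 18.1% covers genes with a window whether measured or not, and a share over measured genes was not computed. The 250 upstream bases of these 3 members are shown because they hold the motif. They are given in the direction of transcription, with the motif in capitals on whichever strand it lies.
Cpt1a, chr19:3323051-3323300, plus strand: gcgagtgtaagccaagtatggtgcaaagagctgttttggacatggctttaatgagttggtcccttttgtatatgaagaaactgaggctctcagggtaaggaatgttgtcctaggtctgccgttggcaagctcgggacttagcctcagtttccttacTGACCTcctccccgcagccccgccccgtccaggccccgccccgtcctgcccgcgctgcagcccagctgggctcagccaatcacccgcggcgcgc
Acadm, chr3:153944644-153944893, minus strand: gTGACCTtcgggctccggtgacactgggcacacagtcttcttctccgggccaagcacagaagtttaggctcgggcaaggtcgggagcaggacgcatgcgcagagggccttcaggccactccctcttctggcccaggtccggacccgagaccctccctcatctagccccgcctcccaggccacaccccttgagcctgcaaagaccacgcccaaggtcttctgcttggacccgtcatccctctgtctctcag
Acadvl, chr11:70015429-70015678, minus strand: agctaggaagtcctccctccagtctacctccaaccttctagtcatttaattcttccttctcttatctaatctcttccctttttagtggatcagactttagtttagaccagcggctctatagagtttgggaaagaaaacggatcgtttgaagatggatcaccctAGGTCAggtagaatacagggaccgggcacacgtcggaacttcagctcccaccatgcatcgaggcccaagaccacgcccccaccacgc
A match is only a string of letters, and its absence from these windows leaves sites elsewhere unsearched.

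Other genes of the pathway, in lists that share no gene with the members, stood beside them as follows. Of 12 measured PPARs, other nuclear receptors and cofactors 7 were lower and 5 higher (median -0.08). By the 1.5-fold rule 1 of them was lower (3 with equal upper quartiles) and none higher. Besides coactivators this list holds the corepressors Ncor1 (76.1 and 52.7 FPKM, -0.52) and Nrip1 (8.13 and 6.86 FPKM, -0.22), both counted as lower. Ppara itself was at 1.52 and 0.696 FPKM (-0.57). Lpin1, a coactivator and phosphatidate phosphatase, was at 3.52 and 1.92 FPKM (-0.63), and the sirtuins Sirt1 and Sirt3 were at 2.70 and 4.52 FPKM (0.58) and at 7.03 and 11.0 FPKM (0.58). Other PPAR-alpha targets split widely. Of 7 measured, 3 were at least 1.5-fold lower and 2 at least 1.5-fold higher (median 0.02, mean -0.11, and median -0.10 with equal upper quartiles). Vnn1, a pantetheinase, was at 9.92 and 4.75 FPKM (-0.92), Ucp2, a mitochondrial carrier, at 14.8 and 7.77 FPKM (-0.85), and Txnip at 4.61 and 2.21 FPKM (-0.81). Angptl4, an inhibitor of lipoprotein lipase, was at 4.86 and 11.0 FPKM (1.03), the only measured gene of this list at least 2-fold higher. With equal upper quartiles none was at least 2-fold higher and 1 was at least 2-fold lower.

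The other peroxisomal oxidation genes were lower in 12 of 18 cases (median -0.26, and 16 of 18 with equal upper quartiles), of which 2 were at least 1.5-fold lower and 1 at least 1.5-fold higher. Crot, the peroxisomal carnitine octanoyltransferase, was at 23.9 and 15.3 FPKM (-0.61), Cat, catalase, at 68.3 and 46.4 FPKM (-0.55), and Hacl1, of alpha-oxidation, at 1.90 and 0.888 FPKM (-0.62). Pex14, of the peroxisomal import machinery, was at 15.1 and 29.6 FPKM (0.93). Of 10 other acyl-CoA dehydrogenases and short-chain partners 5 were lower and 5 higher (median 0.0011, or -0.09 with equal upper quartiles), with Acad11 at 12.6 and 8.07 FPKM (-0.58) and Mecr, of mitochondrial fatty acid synthesis, at 11.7 and 18.9 FPKM (0.65). Mecr was the only measured gene of that list past 1.5-fold, a call that was lost with equal upper quartiles, where 0 were higher and 1 lower by 1.5-fold.

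Supply to the pathway was mixed. Of 7 measured uptake and carnitine genes 3 were lower and 4 higher (median 0.01, mean -0.19, and median -0.10 with equal upper quartiles), and Slc27a1, a fatty acid transport protein, was the only one past 1.5-fold (1 of 2 with equal upper quartiles), at 7.62 and 3.25 FPKM (-1.02). Dbi, the acyl-CoA binding protein, was at 115 and 79.6 FPKM (-0.53). Malonyl-CoA, made by acetyl-CoA carboxylase, blocks Cpt1a, and none of the 7 measured genes around it passed 1.5-fold (median 0.10, or -0.0146 with equal upper quartiles). Acaca, a carboxylase gene, was at 24.5 and 20.6 FPKM (-0.24), and the AMP-activated kinase subunits Prkab2 and Prkag1 at 2.69 and 3.81 FPKM (0.38) and at 53.6 and 68.8 FPKM (0.36). Of 3 measured ketone body genes 1 was lower and 2 higher (median 0.16), with Acat1, an acetoacetyl-CoA thiolase, at 16.2 and 11.6 FPKM (-0.45) and Oxct1, which serves ketone body use, at 67.5 and 75.4 FPKM (0.16). Of 6 propionyl-CoA genes 4 were lower and none passed 1.5-fold (median -0.09), with Pcca at 20.4 and 15.3 FPKM (-0.39). Of 7 other thioesterases and synthetases 2 were lower and 5 higher (median 0.19), of which Acsf3 at 5.81 and 9.55 FPKM (0.63) and Them4 at 7.98 and 12.6 FPKM (0.60) passed 1.5-fold. With equal upper quartiles neither passed, and 1 gene of this list was at least 1.5-fold lower.

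**Figure D4:**
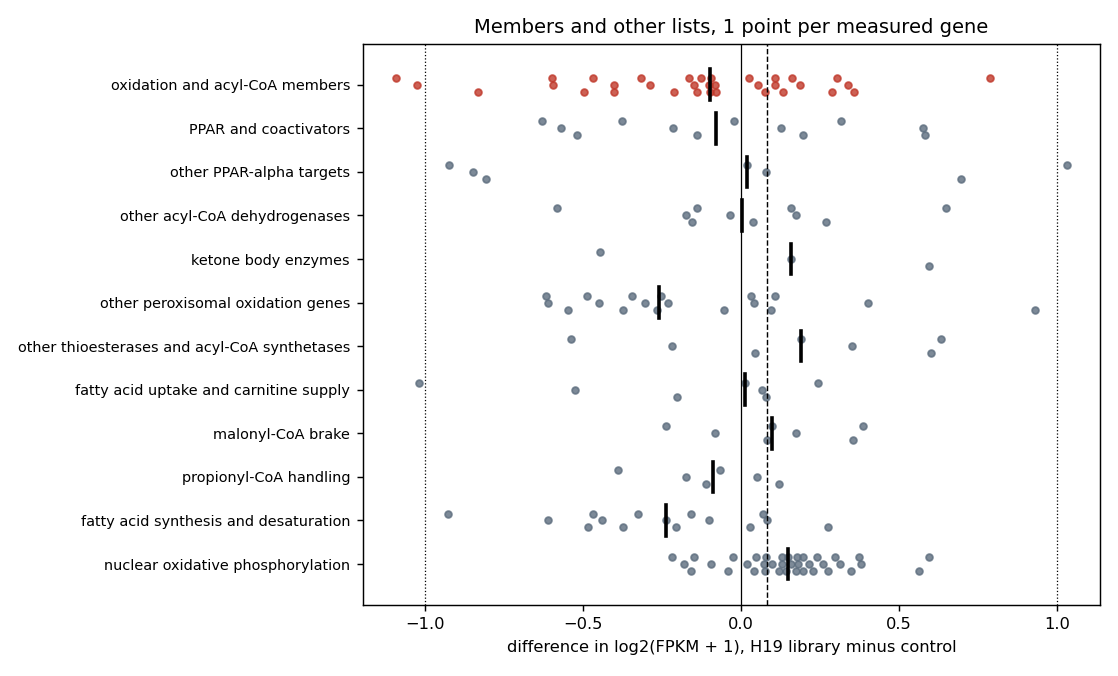
Difference in log2(FPKM + 1), H19 library minus control, for each measured gene of the members (red) and of the other lists (grey), with the median of each list as a black bar. The dashed line is the median of all measured genes (0.08) and dotted lines mark 2-fold, and the nuclear oxidative phosphorylation genes lie mostly to the right of 0 while synthesis genes lie mostly to the left. The list labelled PPAR and coactivators also holds other nuclear receptors and corepressors.

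Set beside the opposite pathway and the respiratory chain, the median of the members lay between theirs. Of 15 measured fatty acid synthesis and desaturation genes 11 were lower (median -0.24), 2 of them by 1.5-fold (3 with equal upper quartiles, 1 of these by 2-fold), with Fads2, the delta-6 desaturase, at 94.4 and 49.1 FPKM (-0.93) and Scd2 at 306 and 199.9 FPKM (-0.61). Of 37 nuclear genes of oxidative phosphorylation, which takes up the electrons of fatty acid oxidation, 7 were lower and 30 higher (median 0.15), with Cyc1 at 137 and 207 FPKM (0.59), a 1.5-fold call that was lost with equal upper quartiles. With equal upper quartiles 14 of the 37 were lower and 23 higher, and the median was 0.03. With 1 library per group no test of a difference between these lists was possible.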

How the data were processed

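Polyadenylated RNA of 2 AML12 lines, 1 control and 1 H19, was made into libraries by standard Illumina protocols, per the labels. CASAVA 1.4, TopHat2 and mm9 appear in the submitters' processing notes. What computed the expression values, how long the reads were and whether strand was used is not given in the sources used here. Per the file headers, the authors deposited FPKM, and the tables of single libraries equal the joint table in all 21145 rows. The authors' deposited table of differences holds, per its headers, a log2 ratio with its p-value and q-value. Identifiers of 21017 genes were found in GENCODE M21, and 99.9% of their deposited loci overlap the GRCm38 gene, so coordinates are those of GRCm38.

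Differences were computed in log2(FPKM + 1) with a pseudocount of 1, and counts use a mean FPKM of at least 1. In long genes with 1 transcript, 28.4% and 30.2% of low values lay within 0.1 of a whole multiple of the best step, where 20% would by even spread, so whole reads were not recovered, no count model was used and depth is unknown. The members, the lists and the rules were chosen with earlier results of these data known. Named genes are all members, H19, markers and, of each list, up to 4 measured genes with the largest difference. Some others are named only to qualify a list or an overlap. Stretches of 50 bases were compared over GENCODE transcripts on both strands, without regard to the read length. Protein sequences were not used here. The steps were tested on simulated data. Python 3.11.15 was used with pandas 2.3.3 and numpy 2.4.6. Some genes that this rule would name are not reported here.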

Additional observations from a re-analysis of the deposited data

How the results depend on the processing

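With 1 library per group no replicate could be left out. No paired analysis was possible because each group has 1 library. Other settings were the pseudocounts 0.1 and 0.01, a filter at a mean FPKM of at least 5 or none at all, all genes centred on a median of 0, equal upper quartiles, TPM and the tables of single libraries. Under these 8 settings the 2 members called 2-fold lower stayed 2, the members 1.5-fold lower numbered 5 or 6 and those higher 1, and the members lower ranged from 20 (mean FPKM of at least 5) to 26 (equal upper quartiles). By a 3-fold rule the 2 became 0. The median of the members stayed below 0, at -0.211 with equal upper quartiles, -0.180 with all genes centred and -0.143 as a mean over members. Under the 4 scalings 21 members were always lower, 8 always higher and 5 (Acsl1, Acsl5, Etfa, Acaa1b and Pex11a) changed side.

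All genes split into 183 lower and 133 higher by 2-fold and 725 and 1050 by 1.5-fold, against 247 and 83, and 1010 and 626, with equal upper quartiles. The 2-fold counts were 346 and 192 with TPM, 316 and 275 with a pseudocount of 0.1, 341 and 295 with 0.01, and 113 and 86 at a mean FPKM of at least 5, so the shares of all genes set beside the members depend on these choices. The 1.5-fold counts were 1168 and 1051 with TPM and 469 and 823 at a mean FPKM of at least 5. An alternative chosen after seeing the data left out the close copies and the members whose exons lie over another gene. It kept 19 measured members, of which 13 were lower, 3 at least 1.5-fold lower and 0 at least 1.5-fold higher. Acot1, Acsl3 and Acot8 were among the genes left out, so neither 2-fold call nor the higher 1.5-fold call remained. The smaller number of members is part of its construction.

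With equal upper quartiles 8 medians of the other lists moved by over 0.1: PPAR-alpha targets -0.0968, ketone body 0.0426, peroxisomal -0.365, thioesterases and synthetases 0.0765, uptake -0.103, malonyl-CoA -0.0146, synthesis -0.349 and oxidative phosphorylation 0.0328. With no filter on low values the PPARs, other receptors and cofactors were at 0.0521, and the PPAR-alpha targets at -0.0869. The ketone body genes were at -0.136 and the thioesterases and synthetases at 0.000637. With TPM the thioesterases and synthetases were at 0.0632 and the uptake genes at -0.103. Equal upper quartiles multiply the whole H19 library by a single factor, which moved the median of all genes by -0.103. The 8 shifts under that setting are therefore not particular to these lists. TPM also multiplies each library by a single factor and, at the same limit of 1, lets in more genes. Removing the filter adds genes with a mean under 1 FPKM to each list. For list medians near 0 the direction therefore depends on the scaling or the filter.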

Other observations

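The authors' deposited table of differences lists 5 genes of the neighbouring lists besides Acsl3 and Acot1. Among all 21145 genes it lists 325, or 1.54%, as lower in the H19 library. The share listed as higher is not given here. Whether the members or the lists differ from these shares was not tested. In the authors' deposited table Ppara has a log2 ratio of -1.12 and a q-value of 0.0410, Slc27a1 of -1.23 and 0.0215, Txnip of -1.06 and 0.00630, and Vnn1 of -1.06 and 0.0430. Angptl4 goes the other way in the authors' deposited table, with 1.17 and 0.000615. These ratios carry no pseudocount, and none of them rests on replicate libraries.

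Of the 34 measured members 13 have exons over another annotated gene and 21 have none. The deposited locus was more than 1.5 times as long as the annotated gene for 7 measured members. For Acaa1a it spanned 224343 bases, against 10624 for the gene, and held 5 other whole coding genes, among them Myd88, which was at 9.64 and 10.9 FPKM.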
